A study of Mus musculus with 6 samples.

Results

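The epithelial-mesenchymal state of lung cancer cells was read from 10 genes, Cdh1, Cdh2, Vim, Fn1, Zeb1, Zeb2, Snai1, Snai2, Twist1 and Grhl2, taken by gene name from count tables of 34745 genes, and each name was found in all 6 tables. Epithelial cells adhere to each other through E-cadherin, the product of Cdh1, whereas mesenchymal cells carry the intermediate filament protein vimentin (Vim), lay down fibronectin (Fn1) and often use N-cadherin (Cdh2). The transcription factors Zeb1, Zeb2, Snai1, Snai2 and Twist1 are known for repressing Cdh1 and other epithelial genes, and Grhl2 is known for maintaining them and for opposing Zeb1. Carcinoma cells, those of the lung included, can lie at either end of this range or carry genes of both ends at the same time.

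The cells were the murine lung cancer cell line 889 (889-DTC), given in the labels as lung of strain C57BL/6. Cells expressing Cas9 with an sgRNA against kiaa1522 (3 libraries, sgkiaa1522) were compared with cells given a control sgRNA (3 libraries, sgcontrol), which the study's methods describe as directed against EGFP, and both groups carried Cas9 from lentiCRISPR plasmids. The study asked which genes change when KIAA1522 is depleted. The sources used here do not say which of the sgRNAs was used or whether each group was a pool or a clone. Nor do they say whether the replicates were separate cultures. The p-values therefore set the difference between groups against the spread between these libraries within a group. They cannot separate the sgRNA from other differences between the cell populations.

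The libraries held 12220001 to 18609376 counts, and a floor of 3 counts corresponded to 0.162 to 0.247 CPM (counts scaled to library size with TMM factors of 0.989 to 1.01). The mRNA of kiaa1522 itself, listed as C77080, was higher in the libraries labelled sgkiaa1522 (210 ± 6.38 CPM, SD, n = 3) than in sgcontrol (127 ± 2.93 CPM, SD, n = 3), with a log2 fold change of 0.73 (adjusted p = 9.1e-05, edgeR quasi-likelihood test, Benjamini-Hochberg). Cas9 cuts DNA and need not lower the mRNA, so this count does not check the labels, and the groups are named as labelled. The study's filter kept genes with a sum above 500 counts across the libraries, 10046 in all. Of these, 52.5% differed at an adjusted p of at most 0.05, and 7.08% did so with a change of 2-fold or more, the threshold in the study's methods (1 on the log2 scale). The median log2 fold change over them was -0.0067.

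Markers of cell types were read in the same libraries. The keratins Krt8, Krt18 and Krt19, 3 of 7 epithelial markers tested, were abundant. Krt8 and Krt19 were lower in the libraries labelled sgkiaa1522 without overlap, whereas the groups overlapped for Krt18, whose call was lost under 10 of 13 alternatives. Lower groups without overlap were seen for 31.1% of all tested genes. The summed level of the 7 was 3758 to 4513 CPM in sgcontrol and 3197 to 3477 CPM in sgkiaa1522. Epcam was at 0 counts in every library, and Cldn4 and Cldn7 had 1 count each over the 6 libraries. The fibroblast markers summed to 467 to 486 CPM in sgcontrol and 167 to 198 CPM in sgkiaa1522. Of these 8, 2 were tested and both were lower, where 26.3% of all tested genes were called lower. Thy1 was at 0 throughout, and Dcn and Lum had 4 and 1 counts in all. The leukocyte markers summed to at most 2.41 CPM in sgcontrol and 10.1 to 13.0 CPM in sgkiaa1522, mostly Cd68, the 1 of 6 tested (log2 fold change 3.23, adjusted p = 2.0e-05, edgeR quasi-likelihood test, Benjamini-Hochberg), while Adgre1 and Cd3e were at 0 in all and Ptprc at 1 to 14 counts. Of 6 alveolar markers 3 were tested, 2 lower and 1 not called. The 6 summed to 208 to 260.0 CPM in sgcontrol and 131 to 167 CPM in sgkiaa1522. Endothelial (0 of 5 tested) and smooth muscle markers (0 of 4 tested) summed to at most 1.66 and 2.31 CPM. Their part in the results was not tested, and in bulk RNA fewer cells of a type and less RNA per cell cannot be told apart.

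The 10 genes did not move as one group. Of the 6 that passed the filter, Cdh1 was lower, Vim, Zeb2 and Snai2 were higher, and Fn1 and Zeb1 were not called at an adjusted p of at most 0.05, where 26.3% of tested genes were called higher and 26.3% lower. Cdh1 alone of the 6 also passed the 2-fold threshold, as did 7.08% of tested genes, 4.34% in the lower direction. The groups did not overlap for 4 of the 6, while over all tested genes 61.7% had groups without overlap and 31.1% had them with the sgkiaa1522 libraries lower. Cdh2, Snai1 and Grhl2 had too few counts for the filter, and Twist1 had none. A fit of all 18499 genes with any count called 33.5% of them, 16.8% lower and 16.7% higher. In that fit 7 of the 9 detected genes among the 10 were called, and 4 of them (Cdh1, Cdh2, Grhl2 and Snai1) passed the 2-fold threshold, as did 9.23% of those genes.

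**Figure D1:**
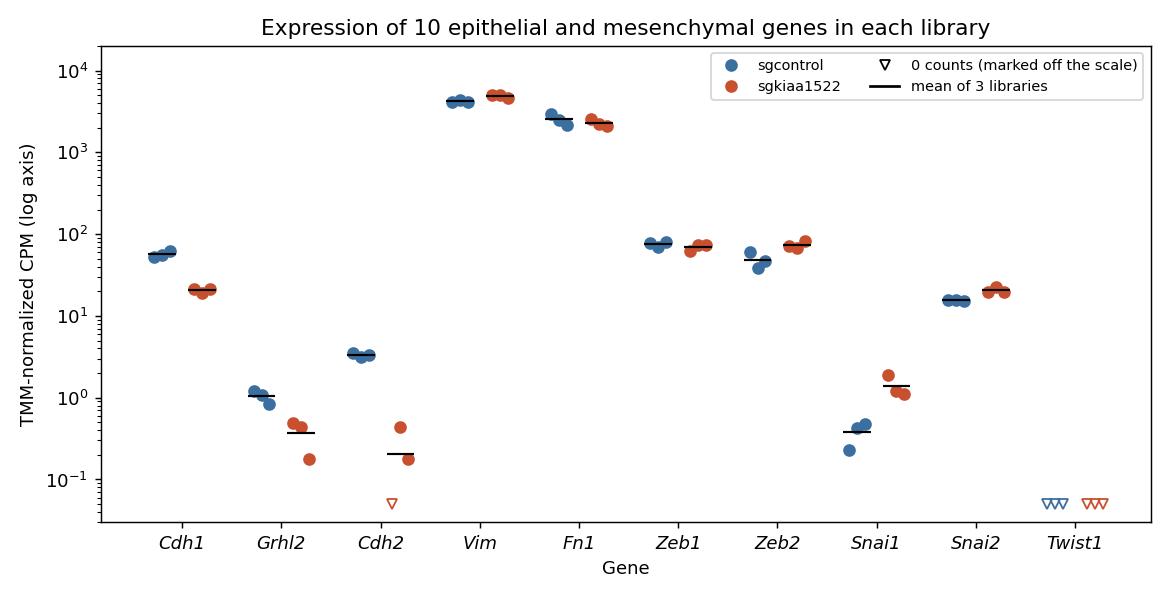
Normalised counts of the 10 genes (CPM with TMM factors, log axis) in each library, with sgcontrol beside the libraries labelled sgkiaa1522, where points are libraries, bars are group means and open triangles mark 0 counts. Cdh1, Cdh2 and Grhl2 lie lower, and Vim, Zeb2, Snai1 and Snai2 higher, in each of the sgkiaa1522 libraries than in every sgcontrol library, while Fn1 and Zeb1 overlap and Twist1 is at 0.

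Cdh1 (ENSMUSG00000000303, GRCm38 chr8:106603351-106670246, plus strand) encodes E-cadherin, the adhesion protein of epithelial adherens junctions. It had 907, 1028 and 1030 counts in sgcontrol and 259, 354 and 361 in the sgkiaa1522 libraries, that is 52.1, 55.5 and 61.8 CPM against 21.3, 19.3 and 21.3 CPM. The groups did not overlap, and the gap between them was wider than the spread within either. Cdh1 was 2.74-fold lower, with a log2 fold change of -1.45 (SE 0.096, 95% interval -1.68 to -1.23, adjusted p = 5.1e-05, edgeR quasi-likelihood test, Benjamini-Hochberg). The exact two-sided permutation test on the CPM gave p = 0.1, the smallest that 3 libraries against 3 allow. Leaving out each library in turn moved the log2 fold change between -1.52 and -1.39.

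Grhl2 (ENSMUSG00000022286, chr15:37233036-37363569, plus strand) encodes a grainyhead-like factor that keeps epithelial genes active. It was close to the limit of detection, with 21, 20 and 14 counts in sgcontrol and 6, 8 and 3 counts in sgkiaa1522. All 3 sgkiaa1522 libraries were below all 3 sgcontrol libraries. The pooled counts, 55 against 17, gave a 2.92-fold lower level (exact 95% interval 1.67 to 5.36, counting error only). In the fit of every gene with at least 1 count the log2 fold change was -1.50 (SE 0.46, adjusted p = 0.022, edgeR quasi-likelihood test, Benjamini-Hochberg). The call was lost with DESeq2 (adjusted p = 0.056) and without sgcontrol replicate 1 (0.057), sgcontrol replicate 2 (0.061) or sgkiaa1522 replicate 3 (0.081).

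Cdh2 (ENSMUSG00000024304, chr18:16588877-16809246, minus strand) encodes N-cadherin, the cadherin that many mesenchymal and neural cells use. Both classical cadherins were lower in the libraries labelled sgkiaa1522. Cdh2 had 61, 59 and 56 counts in sgcontrol and 0, 8 and 3 counts in sgkiaa1522, or 3.50, 3.18 and 3.36 CPM against 0, 0.436 and 0.177 CPM. The sgcontrol libraries lay close together, and the sgkiaa1522 libraries were at or near the floor of 3 counts. The pooled counts, 176 against 11, gave a 14.4-fold lower level (exact 95% interval 7.87 to 29.4, counting error only). The fitted log2 fold change was -3.83 (SE 0.46, adjusted p = 4.7e-05, edgeR quasi-likelihood test, Benjamini-Hochberg, every gene with at least 1 count). It moved to -4.93 without sgkiaa1522 replicate 2, the library with the most Cdh2 counts of its group, and was -3.86 to -3.39 with each of the other libraries left out.

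Vim (ENSMUSG00000026728, chr2:13573927-13582826, plus strand), the type III intermediate filament gene of mesenchymal cells, was by far the most abundant of the 10 genes. Its level was 4095, 4324 and 4147 CPM in sgcontrol and 4961, 5064 and 4628 CPM in sgkiaa1522. The lowest sgkiaa1522 library lay above the highest sgcontrol library, but the rise was small, 1.17-fold. The log2 fold change was 0.22 (SE 0.055, 95% interval 0.09 to 0.35, adjusted p = 0.012, edgeR quasi-likelihood test, Benjamini-Hochberg). Without sgkiaa1522 replicate 2 the adjusted p was 0.054 at a log2 fold change of 0.20.

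Fn1 (ENSMUSG00000026193, chr1:71585520-71653200, minus strand) encodes fibronectin, a matrix protein bound by integrins. It was at 2939, 2503 and 2134 CPM in sgcontrol and 2522, 2227 and 2105 CPM in sgkiaa1522. The groups overlapped, and the sgcontrol libraries spread more widely (SD 403 CPM) than the means differed (2525 against 2285 CPM). The log2 fold change was -0.14 (95% interval -0.43 to 0.14, adjusted p = 0.34, edgeR quasi-likelihood test, Benjamini-Hochberg). The data leave room for a change of either sign within that interval. Apol7d, on the opposite strand, shares 2.50% of the exon length of Fn1.

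Beside their counts, sequences just upstream of the start were compared for Snai1, the factor whose fitted rise was the largest, Zeb2, the only Zeb gene called higher, and Twist1, for which no read was counted. Grhl3, a tested relative of Grhl2, is an epithelial gene whose level fell, and it was chosen for display after its values were seen. The other relative, Grhl1, had too few counts for the filter and did not fall. It had 29, 29 and 21 counts in sgcontrol and 24, 21 and 44 in sgkiaa1522, and the groups overlapped. SNAI, ZEB and TWIST proteins are known to bind E-boxes, which have the letters CANNTG, and the SNAI and ZEB proteins prefer the form CAGGTG, read as CACCTG on the other strand. The 250 bases before the RefSeq start (GRCm38.p6, 5′ to 3′ on the gene's strand) are given with every CANNTG in capitals, both strands being covered because the pattern is its own reverse complement. They are chr2:167537945-167538194 (plus strand) for Snai1, chr2:45117443-45117692 (minus strand) for Zeb2, chr12:33957421-33957670 (plus strand) for Twist1 and chr4:135573633-135573882 (minus strand) for Grhl3.
Snai1: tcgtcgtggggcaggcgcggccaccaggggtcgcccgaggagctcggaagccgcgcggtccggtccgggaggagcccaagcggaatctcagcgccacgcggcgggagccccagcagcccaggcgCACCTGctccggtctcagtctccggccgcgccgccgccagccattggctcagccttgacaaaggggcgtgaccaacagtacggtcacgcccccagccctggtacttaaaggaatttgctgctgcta
Zeb2: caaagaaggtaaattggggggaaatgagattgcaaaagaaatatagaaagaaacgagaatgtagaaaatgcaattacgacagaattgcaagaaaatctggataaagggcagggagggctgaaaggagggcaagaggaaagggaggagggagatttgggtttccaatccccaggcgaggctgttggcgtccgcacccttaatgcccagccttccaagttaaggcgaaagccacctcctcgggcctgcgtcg
Twist1: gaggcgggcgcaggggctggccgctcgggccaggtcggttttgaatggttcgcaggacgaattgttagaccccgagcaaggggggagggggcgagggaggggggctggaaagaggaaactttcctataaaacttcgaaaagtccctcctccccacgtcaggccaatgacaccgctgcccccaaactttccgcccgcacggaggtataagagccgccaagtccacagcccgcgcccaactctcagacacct
Grhl3: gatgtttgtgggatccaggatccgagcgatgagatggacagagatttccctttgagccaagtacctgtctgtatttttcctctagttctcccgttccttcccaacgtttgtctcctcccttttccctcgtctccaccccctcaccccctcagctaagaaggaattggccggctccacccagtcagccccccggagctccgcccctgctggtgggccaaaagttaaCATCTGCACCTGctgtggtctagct
Snai1 held 1 E-box, a CACCTG 126 bases before the start, and Grhl3 held CATCTG and CACCTG side by side, 25 and 19 bases before the start. No CANNTG was in the windows of Zeb2 and Twist1. Of 32851 windows of the same length, 66.2% held a CANNTG and 17.2% a CAGGTG or CACCTG, so such letters are common and their presence is a description only. The windows also differed in composition, from 70% G and C in Snai1 to 49.6% in Zeb2, and held 27 CpG in Snai1, 9 in Zeb2 and 8 in Grhl3.

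Zeb2 (ENSMUSG00000026872, chr2:44983632-45117395, minus strand) and Zeb1 (ENSMUSG00000024238, chr18:5591860-5775467, plus strand) encode related zinc-finger homeobox repressors. Zeb2 was at 60.8, 38.6 and 47.3 CPM in sgcontrol and 71.6, 68.4 and 83.2 CPM in the libraries labelled sgkiaa1522. The groups did not overlap, although sgcontrol replicate 1, at 60.8 CPM, came close to the lowest sgkiaa1522 library, at 68.4 CPM. Zeb2 rose 1.52-fold, with a log2 fold change of 0.61 (SE 0.17, 95% interval 0.22 to 0.99, adjusted p = 0.017, edgeR quasi-likelihood test, Benjamini-Hochberg). The call was lost without sgkiaa1522 replicate 3 (log2 fold change 0.52, adjusted p = 0.061). The antisense gene Zeb2os shares 3.27% of the exon length of Zeb2 and had 73 counts over the 6 libraries.

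Zeb1 was at 78.5, 69.2 and 79.6 CPM in sgcontrol and 62.4, 73.2 and 73.0 CPM in sgkiaa1522. The groups overlapped, and the log2 fold change of -0.12 (95% interval -0.34 to 0.09) was not called (adjusted p = 0.30, edgeR quasi-likelihood test, Benjamini-Hochberg). Within each library the log2 ratio of Zeb1 to Zeb2, in TPM (counts divided by exon length and scaled to the same total), was 1.33, 1.80 and 1.71 in sgcontrol and 0.76, 1.06 and 0.77 in sgkiaa1522. Zeb1 was thus above Zeb2 in every library per length, by a smaller margin in each sgkiaa1522 library.

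Snai2 (ENSMUSG00000022676, chr16:14705852-14709385, plus strand) and Snai1 (ENSMUSG00000042821, chr2:167538195-167542814, plus strand) encode the Slug and Snail repressors. Both were higher in the libraries labelled sgkiaa1522. Snai2 was at 15.7, 15.9 and 15.1 CPM in sgcontrol and 19.9, 22.7 and 19.4 CPM in sgkiaa1522, with no overlap. It rose 1.33-fold, with a log2 fold change of 0.41 (SE 0.10, 95% interval 0.18 to 0.65, adjusted p = 0.010, edgeR quasi-likelihood test, Benjamini-Hochberg), and it stayed called with each library left out.

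Snai1 had 4, 8 and 8 counts in sgcontrol and 23, 22 and 19 counts in sgkiaa1522. Every sgkiaa1522 library was above every sgcontrol library, at counts too low for the filter. The pooled counts, 20 against 64, gave a 3.55-fold higher level (exact 95% interval 2.12 to 6.19, counting error only). The log2 fold change was 1.85 (SE 0.42, 95% interval 0.93 to 2.76, adjusted p = 0.0043, edgeR quasi-likelihood test, Benjamini-Hochberg, every gene with at least 1 count). Twist1 (ENSMUSG00000035799, chr12:33957671-33959829, plus strand), a basic helix-loop-helix factor, had 0 counts in all 6 libraries. That is under the floor of 3 counts, which corresponded to 0.162 to 0.247 CPM in a library.

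**Figure D2:**
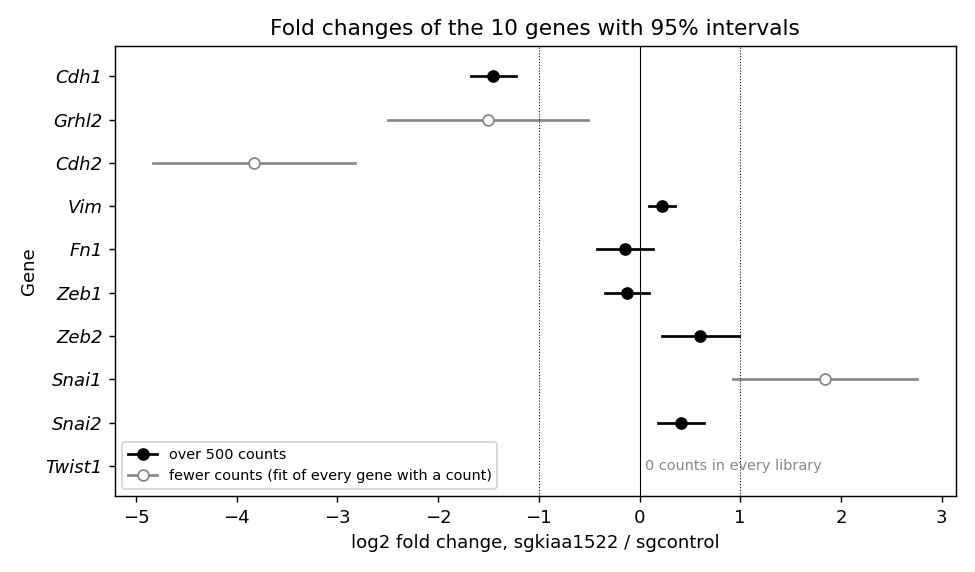
Log2 fold change (sgkiaa1522 over sgcontrol) of each detected gene with its 95% interval, where filled symbols are from the fit of genes above the count filter and open symbols from the fit of every gene with at least 1 count. Cdh2, Grhl2 and Cdh1 lie at -3.83, -1.50 and -1.45, Zeb1 and Fn1 span 0, and Vim, Snai2, Zeb2 and Snai1 lie between 0.22 and 1.85.

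Tested genes lying within 1 Mb of each of the 10 were read beside them, the gene itself left out. The 41 neighbours of Cdh1 had a median log2 fold change of 0.23, opposite in sign to that of Cdh1. Neighbours of the genes that were higher had positive medians too, 0.44 for Vim (8 genes), 0.47 for Snai1 (21 genes) and 0.35 for Snai2 (11 genes), and the 1 neighbour of Zeb2 was at 0.60. Vim itself, at 0.22, was below the median of its neighbours. Vim, Zeb2 and Snai1 lie on the same chromosome, 2, whose other tested genes had a median of 0.14. The median was 0.06 for chromosome 16 (Snai2), 0.09 for chromosome 8 (Cdh1) and -0.21 for chromosome 1 (Fn1). The medians were -0.57 for Fn1 (7 genes), 0.10 for Zeb1 (7 genes), -0.10 for Grhl2 (7 genes) and -0.03 for Twist1 (3 genes), and the 1 neighbour of Cdh2 was at 0.02. The part of position in the results was not tested.

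Compared per exon length, the level in sgcontrol ran from Vim (2264 ± 45.3 TPM, SD, n = 3) through Fn1 (555 ± 100.2 TPM) to Cdh1 (31.6 ± 2.30 TPM), Snai2 (19.7 ± 0.766 TPM), Zeb1 (18.9 ± 1.65 TPM) and Zeb2 (6.31 ± 1.59 TPM). Snai2 and Zeb1 did not differ beyond their spread, and Cdh2 (1.07 TPM), Snai1 (0.599 TPM) and Grhl2 (0.311 TPM) were far lower. In the libraries labelled sgkiaa1522 the order was Vim (2815 ± 88.9 TPM), Fn1 (535 ± 46.8 TPM), Snai2 (27.9 ± 2.05 TPM), Zeb1 (18.5 ± 1.73 TPM), Cdh1 (12.4 ± 0.831 TPM) and Zeb2 (10.2 ± 1.23 TPM). Here the ranges of Cdh1 and Zeb2 overlapped, and Snai1 (2.37 TPM) was above Grhl2 (0.117 TPM) and Cdh2 (0.069 TPM). Cdh1 thus passed from above to below Snai2 and Zeb1. Both orders depended on the length used. With the longest transcript in place of all exons, Zeb1 (27.5 TPM) was level with Cdh1 (26.8 TPM) in sgcontrol and Snai2 was at 16.2 TPM. In sgkiaa1522 the mean of Zeb1 (26.7 TPM) was then above that of Snai2 (22.7 TPM), with ranges that overlapped. Zeb2 (16.5 to 20.6 TPM) was above Cdh1 (9.60 to 10.85 TPM) without overlap.

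Ratios of epithelial to mesenchymal transcripts, read within each library, did not all move the same way. The log2 TPM ratio of Cdh1 to Vim was -6.25, -6.23 and -6.02 in sgcontrol and -7.81, -7.98 and -7.71 in sgkiaa1522. Every sgkiaa1522 library was lower, and the means differed by -1.67, most of it from Cdh1. The ratio of Cdh1 to Fn1 was -4.47, -4.14 and -3.76 in sgcontrol and -5.53, -5.50 and -5.28 in sgkiaa1522, again without overlap, a difference of -1.31. The ratio of Cdh1 to Cdh2 went the other way, from 4.71, 4.94 and 5.02 in sgcontrol to 6.29 and 7.73 in sgkiaa1522 replicates 2 and 3, where Cdh2 rests on 8 and 3 counts. It is undefined in sgkiaa1522 replicate 1, where Cdh2 was at 0. The ratio of Snai2 to Snai1 was 5.77, 4.88 and 4.65 in sgcontrol and 3.07, 3.92 and 3.80 in sgkiaa1522, a difference of -1.51, so that Snai1 gained on Snai2 while remaining the scarcer transcript.

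**Figure D3:**
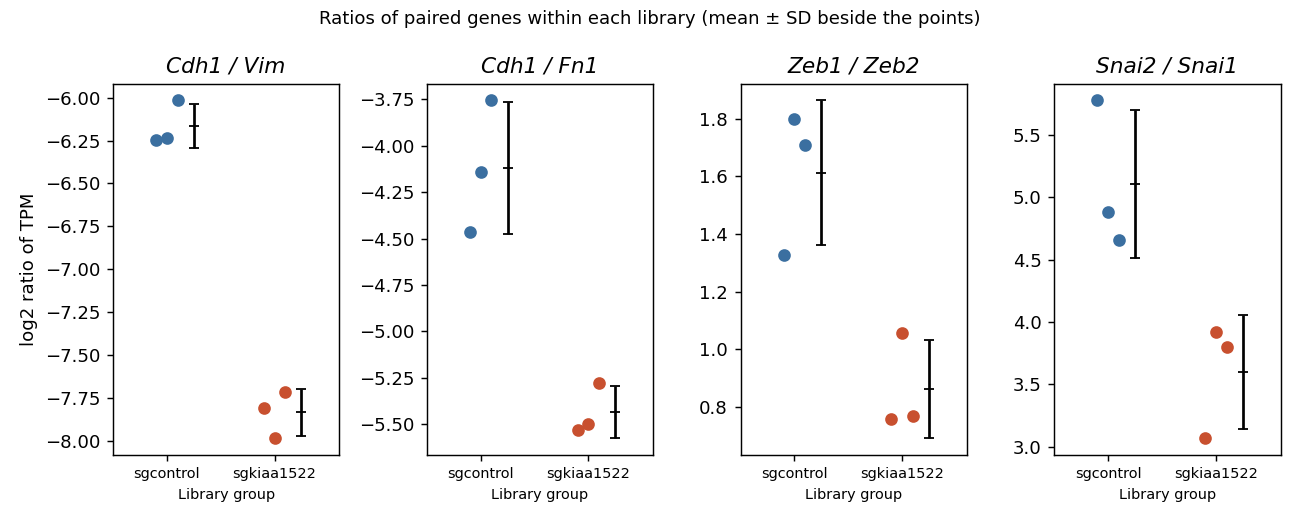
Log2 ratios of TPM between pairs of the genes in each library, sgcontrol beside the libraries labelled sgkiaa1522, where points are libraries and the bars beside them are the mean ± SD (n = 3). Cdh1 over Vim (-6.25 to -6.02 against -7.98 to -7.71) and Cdh1 over Fn1 lie lower in sgkiaa1522, as do Zeb1 over Zeb2 and Snai2 over Snai1. Cdh1 over Cdh2 is not drawn.

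Most other genes of epithelial cells had few counts in this line, and 23 of 30 did not pass the filter. Of the 7 that did, 6 were lower, Krt18 among them, and 1 was not called, where 26.3% of all tested genes were lower. Their median log2 fold change was -0.44 against -0.0067 over all tested genes. Cgn, which encodes the tight junction protein cingulin, was lowest by fold, at 20.0 ± 2.08 CPM in sgcontrol and 5.60 ± 0.299 CPM in sgkiaa1522 (log2 fold change -1.83, adjusted p = 5.3e-05, edgeR quasi-likelihood test, Benjamini-Hochberg). Grhl3 had 707, 776 and 678 counts in sgcontrol and 270, 303 and 245 counts in sgkiaa1522, a log2 fold change of -1.22 (adjusted p = 5.7e-04, edgeR quasi-likelihood test, Benjamini-Hochberg). Krt19 (-0.73), F11r (-0.44), which encodes a junctional adhesion molecule, Krt8 (-0.40) and Krt18 (-0.19) also fell, the last at an adjusted p of 0.0496 by edgeR's test that was above 0.05 under 10 of 13 alternatives, among them the omission of any library but sgcontrol replicate 1. Esrp2, an epithelial splicing factor, was at a log2 fold change of 0.03 and was not called. Under the filter, Elf3 (0, 1 and 0 counts in sgcontrol, 2, 3 and 5 in sgkiaa1522) was higher without overlap. So was Tjp3 (0, 0 and 0, then 4, 2 and 1), while Dsp (3, 2 and 3, then 0, 1 and 1) was lower. Elf3, Tjp3 and Dsp were not called in the fit of every gene with at least 1 count. For the others under the filter, Grhl1 and Rab25 included, the groups overlapped.

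Of 28 other mesenchymal genes 13 were tested, and 6 were lower, 1 higher and 6 not called, with a median log2 fold change of -0.39. Over all tested genes 26.3% were lower and 26.3% higher. Of the 6 that were lower, 4 passed the 2-fold threshold, as did 4.34% of all tested genes in that direction. S100a4, a calcium-binding protein of motile cells, went from 665 ± 69.4 CPM to 159 ± 33.9 CPM (log2 fold change -2.07, adjusted p = 8.9e-05, edgeR quasi-likelihood test, Benjamini-Hochberg). Ctgf, a matricellular protein gene, had a log2 fold change of -1.87, the collagen gene Col1a2 -1.46 and Fstl1 -1.02, each of the 3 called and without overlap between the groups. Without sgkiaa1522 replicate 2, Fstl1 was at -0.973, short of the 2-fold threshold. Itga5, the integrin subunit that binds fibronectin with Itgb1, was the gene that rose (36.8 against 50.3 CPM, log2 fold change 0.45). Cd44, Sparc and Axl had log2 fold changes of -0.01, -0.03 and 0.11 and were not called. Cdh11, Thy1, Fap, Fbn1 and Mmp2 had 0 counts in every library.

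Of 14 other transcription factors known for this transition 4 were tested, 1 higher, 2 lower and 1 not called, beside 52.5% called over all tested genes. Tcf4, an E-protein, rose from 49.9 ± 9.30 CPM to 97.6 ± 8.52 CPM (log2 fold change 0.97, adjusted p = 0.0011, edgeR quasi-likelihood test, Benjamini-Hochberg). Foxq1, a forkhead factor, fell by 0.77 on the log2 scale and the E-protein Tcf3 by 0.28, the latter losing its call without sgcontrol replicate 2 or sgkiaa1522 replicate 1 or 3. Twist2, the relative of Twist1, had 0 counts in all libraries, and the SNAI relative Snai3 had 11, 19 and 6 counts in sgcontrol and 4, 5 and 2 counts in sgkiaa1522. Unlike Snai1 and Snai2 it was not higher in sgkiaa1522, and its log2 fold change of -1.50 in the fit of every gene with at least 1 count was not called (adjusted p = 0.073, edgeR quasi-likelihood test, Benjamini-Hochberg).

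E-cadherin works through the catenins, which tie it to actin. Of 12 genes of the adherens junction 10 were tested, 3 were lower, 1 was higher and 6 were not called, with a median of -0.0084. Over all tested genes 26.3% were called in each direction. Jup, the gene of plakoglobin, had 75.0, 84.1 and 87.0 CPM in sgcontrol and 46.3, 32.7 and 42.5 CPM in sgkiaa1522 (log2 fold change -1.02, adjusted p = 7.1e-04, edgeR quasi-likelihood test, Benjamini-Hochberg). The α-catenin gene Ctnna1 fell by 0.48 on the log2 scale and the nectin gene Pvrl2 by 0.72. The β-catenin gene Ctnnb1 (-0.15) and the p120 catenin gene Ctnnd1 (-0.07) were not called. Mllt4, the gene of afadin, was at 363, 187 and 182 CPM in sgcontrol and 353, 506 and 528 CPM in sgkiaa1522, groups that overlap, and its call (log2 fold change 0.92) was lost without sgcontrol replicate 2 or 3 or sgkiaa1522 replicate 2 or 3.

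Of 12 other cadherins and protocadherins 3 were tested, 2 of them higher and 1 lower, too few to set against the 52.5% called over all tested genes. Cdh13, whose product is anchored to the membrane by a lipid, rose from 241 to 400.3 CPM (log2 fold change 0.73, adjusted p = 5.4e-04, edgeR quasi-likelihood test, Benjamini-Hochberg). Cdh17, liver-intestine cadherin, had 10.2, 9.17 and 8.76 CPM in sgcontrol and 14.6, 20.5 and 20.97 CPM in sgkiaa1522 (log2 fold change 1.00), without overlap. Pcdh1 fell by 0.47 on the log2 scale, a call lost without sgcontrol replicate 1 or 2 or sgkiaa1522 replicate 2 or 3.

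Of 12 receptors and partners of fibronectin 7 were tested, 2 were higher and 5 not called, with a median of -0.06, a share of higher genes near the 26.3% over all tested genes. Itga5 was 1 of the higher genes, and Plaur, the urokinase receptor, was the other, at 79.1, 74.2 and 70.1 CPM in sgcontrol and 120, 119 and 122 CPM in sgkiaa1522 (log2 fold change 0.69, adjusted p = 1.9e-04, edgeR quasi-likelihood test, Benjamini-Hochberg). Among relatives and partners of Vim in the intermediate filament network, 3 of 7 were tested, 1 higher, 1 lower and 1 not called, where 52.5% of all tested genes were called. Prph, the type III filament gene of peripheral neurons, had 54, 64 and 58 counts in sgcontrol and 352, 520 and 581 counts in sgkiaa1522 (log2 fold change 3.19, adjusted p = 8.4e-06, edgeR quasi-likelihood test, Benjamini-Hochberg), whereas Nes, the gene of nestin, fell by 1.05 on the log2 scale.

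TGF-beta signalling is a known inducer of the SNAI and ZEB genes. Of 11 of its genes 10 were tested, 4 higher, 3 lower and 3 not called, with a median of 0.13, where 26.3% of all tested genes were called in each direction. The gene under the filter, the co-receptor gene Tgfbr3, had 0, 2 and 1 counts in sgcontrol and 23, 43 and 44 counts in sgkiaa1522, and was called higher in the fit of every gene with at least 1 count (adjusted p = 1.3e-05, edgeR quasi-likelihood test, Benjamini-Hochberg). Smad6 and Smad7, the inhibitory SMADs, fell by 1.07 and 0.92 on the log2 scale, and Tgfb3 by 0.50. Tgfb2 (0.50), Smad4 (0.47), Tgfbr1 (0.35) and Tgfb1 (0.25) were higher, but the last pair lost their calls with replicate as a block and with libraries left out, Tgfbr1 without any library but sgcontrol replicate 1, and Tgfb1 without sgcontrol replicate 3 or sgkiaa1522 replicate 2 or 3.

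**Figure D4:**
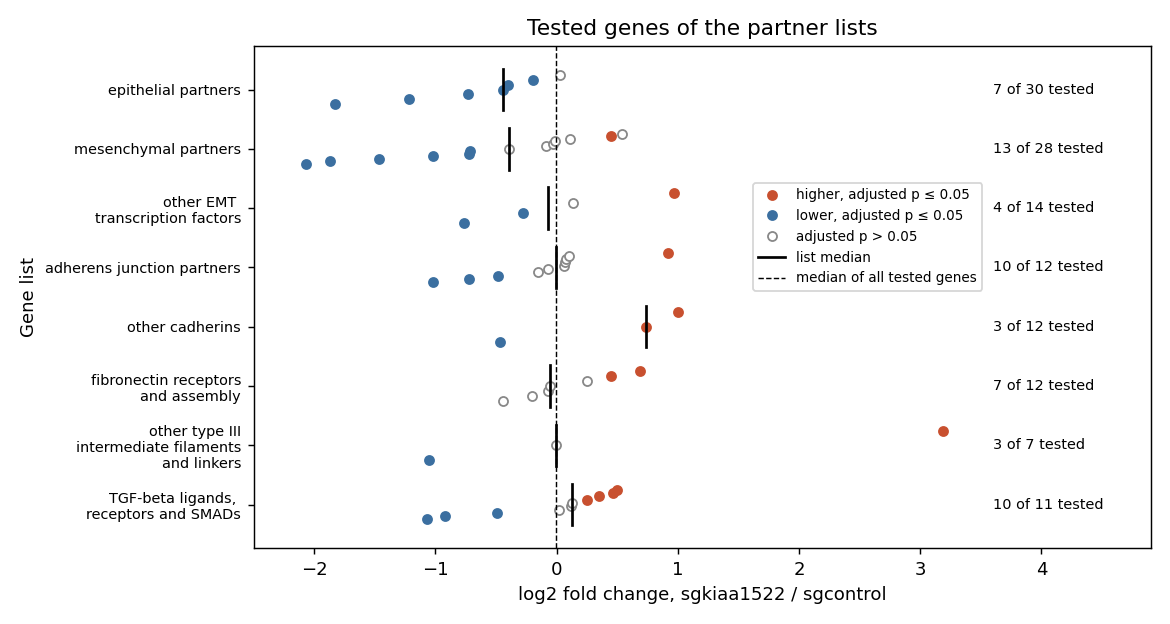
Log2 fold change (sgkiaa1522 over sgcontrol) of the tested genes in each list, with the median of each list as a bar, where filled points passed an adjusted p of 0.05, open points did not and the dashed line is the median of all tested genes. The medians run from -0.44 for the epithelial genes to 0.73 for the other cadherins, against -0.0067 over all tested genes.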

How the data were processed

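RNA of 889 cells was sequenced in 3 sgcontrol and 3 sgkiaa1522 libraries. The authors deposited raw counts per Ensembl gene, without normalization: adaptors and rRNA reads were removed with Seqtk, reads were mapped to GRCm38 with HISAT2 (2.0.4) and uniquely mapped fragments were counted with StringTie (1.3.0), versions being those of the submitters' processing notes. The annotation release and strand setting were not given in the sources used here. Genes were matched to GENCODE M21 (34344 of 34745).

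The comparison used genes with more than 500 counts summed over the 6 libraries (10046 genes, 99.5 to 99.6% of each library's counts), TMM factors and the quasi-likelihood test of edgeR, adjusted by the Benjamini-Hochberg method over all tested genes (R 4.3.3, edgeR 4.0.16, limma 3.58.1), without covariates. Calls needed an adjusted p of at most 0.05, and the threshold in the study's methods adds a change of 1 or more on the log2 scale, up or down. The study's text names edgeR without a test. Genes under the filter were read from a fit of all genes with any count. TPM came from counts and the summed exon length. Pooled counts were compared by exact binomial 95% intervals, which cover counting error only. The code was tested on simulated counts.

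The members and lists were chosen with earlier results of these data known. Named from each list were up to 4 called genes in each direction, plus genes not called and markers. Same-group replicates differed by more than sampling noise and were each counted. The alternatives were RLE factors, library size alone, no filter or filterByExpr, edgeR's exact test, DESeq2's Wald test (1.42.0), the replicate block and each library left out. Promoter entries were found for 4 of the 10 genes (Vim, Zeb2, Snai1 and Twist1).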

Additional observations from a re-analysis of the deposited data

How the results depend on the processing

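Fold changes were recomputed for kiaa1522, the 9 detected of the 10 genes, and the named genes of the lists that were called. Of these 570 values, 533 kept direction and call, 37 lost the call and 0 reversed. The call here is by adjusted p alone, and some values that kept it crossed the 2-fold threshold. Jup went from -1.02 to -0.884 without sgkiaa1522 replicate 2, and Tcf4 from 0.968 to 1.08 without sgcontrol replicate 2. Fold changes were not recomputed for Esrp2, Cd44, Sparc, Axl, Ctnnb1, Ctnnd1, Tgfbr3, Snai3 and Nkx2-1. The calls of Cdh1 and Snai2 held under every alternative run, and those of Vim and Zeb2 under all but 1. Fitting every gene with at least 1 count, or edgeR's filterByExpr, gave 941 and 812 genes lower in place of 436, and 767 and 607 higher in place of 275, since more genes were tested. With either filter 7 of the 10 genes were called in place of 4, and 4 in place of 1 passed the threshold of fold. With each library left out in turn, 366 to 456 genes were lower, 226 to 338 higher, 3 to 4 of the 10 called, and 1 past the threshold of fold. Over the other lists, 19 to 23 genes were then lower (22 with all libraries) and 8 to 15 higher (11 with all libraries). With all libraries 26.3% of all tested genes were called in each direction. Cdh2, Snai1 and Grhl2 had at most 61 counts in a library, and for them the block, DESeq2 and the omission of libraries in the fit of every gene with at least 1 count were added after seeing the data, as was the longest-transcript length.

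The groups share replicate numbers, but libraries of the same number did not deviate together (correlations of -0.23, -0.05 and -0.17), so the numbers were not taken as pairs. With the replicate block 434 genes were lower and 285 higher, and 4 of the 10 genes were called. Cdh1 stayed at a log2 fold change of -1.45 with the block (adjusted p = 9.5e-04, edgeR quasi-likelihood test, Benjamini-Hochberg).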

Other observations

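Nkx2-1, the homeobox gene of the lung epithelial lineage, varied widely within both groups. It had 970, 1096 and 227 counts in sgcontrol and 132, 174 and 671 in the sgkiaa1522 libraries, or 55.7, 59.1 and 13.6 CPM against 10.9, 9.49 and 39.5 CPM. The groups overlapped, and the adjusted p was 0.21 (edgeR quasi-likelihood test, Benjamini-Hochberg). In each group 1 library, replicate 3, stood apart from the other two for this gene. Cdh1 in those libraries was at 61.8 CPM in sgcontrol and 21.3 CPM in sgkiaa1522, close to the other libraries of its group.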
